A study of Mus musculus with 48 samples.

Results

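The cells described here carried the label T cell in the cell annotation deposited for limb muscle. They were chosen by that label and by organ alone, and there were 1283 of them, out of 1788 T-labelled cells in all organs, 4565 labelled muscle cells and 12096 labelled cells in the series. The study asked how gene expression changes across organs in collagen-induced arthritis (CIA), a mouse model of rheumatoid arthritis in which an immune response to type II collagen inflames the joints. Seq-Well, a picowell method that counts unique molecular identifiers (UMIs) per gene and cell, was applied to 48 samples from 5 organs of 10 male DBA1/J mice aged 8 to 12 weeks. The 6 CIA mice (S1, S2, S3, S5, S6 and S8) received 100 µg of collagen in complete Freund's adjuvant. A booster at day 20 was given in incomplete Freund's adjuvant. The 4 healthy mice (H3, H4, H6 and H7) received PBS, so effects of adjuvant and of arthritis cannot be told apart between the groups. All organs were frozen after dissection, and the muscle was digested with collagenase and DNase once thawed. The titles divide the mice into 2 experiments, and the 3 healthy mice that entered the tests (H4, H6 and H7) were all of the first one, with S6, whereas S2 and S3 were of the second. S1, S2 and S3 had an arthritis score of 8, S5 one of 4 to 5, S6 one of 3 to 4 and S8 one of 2 to 3.

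T cells recognise antigen through a receptor made of alpha and beta, or gamma and delta, chains that signal through the CD3 proteins. Naive T cells recirculate through lymphoid organs and carry the homing receptor CCR7 and the factors TCF1 (Tcf7) and LEF1. Activated, memory and regulatory T cells lose part of that programme, enter tissues such as muscle, and carry costimulatory and inhibitory receptors such as ICOS, OX40 (Tnfrsf4) and CTLA-4.

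The number of T-labelled cells per muscle sample ran from 1 to 550. It was 9 in H3, 17 in H4, 144 in H6 and 180 in H7, and 1 in S1, 550 in S2, 128 in S3, 9 in S5, 236 in S6 and 9 in S8. Both groups thus held well-filled and nearly empty samples, and S2 alone gave more cells than all healthy mice together. As a share of labelled muscle cells, they made up 12.9% in H3, 10.1% in H4, 38.9% in H6 and 40.1% in H7, a mean of 25.5% ± 16.2 (SD, n = 4). In CIA the share was 2.22% in S1, 79.8% in S2 (95% Wilson interval 76.7 to 82.7), 73.1% in S3, 2.59% in S5, 11.9% in S6 (10.5 to 13.4) and 3.44% in S8, a mean of 28.8% ± 37.1 (SD, n = 6). The difference of 3.35 percentage points was far inside the spread between mice (two-sided exact permutation test, p = 0.933; the smallest p this design allows is 0.00952). Red cells were lysed in 6 of the muscle samples (H6, H7, S2, S3, S6 and S8), where the share ran from 3.44% to 79.8%. They were not lysed in the other 4 (H3, H4, S1 and S5), where the share ran from 2.22% to 12.9%. In the first experiment alone, 3 CIA mice held a mean share 23.7 points below 3 healthy mice (exact permutation p = 0.2), the opposite direction.

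Tests between groups used the 6 mice with at least 10 such cells, H4, H6 and H7 against S2, S3 and S6, which held 1255 of the 1283 cells. The mouse was the replicate. The UMIs of these cells summed to 18783 in H4, 91812 in H6, 142515 in H7, 403221 in S2, 94780 in S3 and 218544 in S6, so that H4 was by far the shallowest sum. The median cell had 712, 548 and 551 UMIs in the healthy mice and 569, 560 and 681 in the CIA mice, a difference of means of -0.167 UMIs (exact permutation p = 1.0 for 3 against 3 mice, a design that cannot go below 0.1). All 1283 barcodes were distinct, and 2 of them occurred in another library of the series.

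The label was checked against the markers that define the lineage. Transcripts of the receptor complex (Cd3d, Cd3e, Cd3g, Cd247, Trac, Trbc1 and Trbc2) were found in 545 of the 1283 cells, 42.5% (95% Wilson interval 39.8 to 45.2), at a median of 579 UMIs per cell. By mouse, the share was 0 of 17 cells in H4, 35.4% in H6, 20.0% in H7, 46.7% in S2, 33.6% in S3 and 64.8% in S6. S6 stood highest and H4 held no such transcript, which with 17 cells still allows a share of up to 18.4% by the Wilson interval, or 17.6% taken as 3 of 17 cells. As CPM, a gene's UMIs scaled to a common total of 1000000, the complex stood at 0 in H4, 1013 in H6, 575 in H7, 1796 in S2, 1445 in S3 and 2462 in S6. Intervals and limits of this kind cover counting error only.

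The other labels of the same muscle samples give the background for these shares. Receptor transcripts were present in 7.5% of endothelial cells at a median of 842 UMIs and in 12.7% of fibroblasts at 738 UMIs. The share was 21.9% in cells labelled myocytes (614 UMIs) and 33.9% in neutrophils (732 UMIs). They stood at 71.1% in cells labelled natural killer (NK), which had a median of 540 UMIs and the highest complex level of any muscle label, 3590 CPM against 1605 in the T-labelled cells. With each cell thinned to 400 UMIs, the T-labelled share was 33.1%, against 2.92% in endothelial cells, 6.9% in fibroblasts, 8.65% in B cells, 13.8% in myocytes, 18.1% in neutrophils and 64.1% in NK-labelled cells. Pooled over mice, T-labelled cells thus lay above each of these labels but the NK label. Inside the healthy mice this did not hold. In H6 the thinned share was 27.1% against 33.3% in 15 neutrophils, and in H7 15.0% against 25.0% in 20 neutrophils. In H4 it was 0% against 8.51% in 47 granulocytes. In S6 it was 47.9% against 15.1% in neutrophils, and in S3 25.8% against 21.1% in macrophages. In other organs, T-labelled cells held receptor transcripts in 24.3% of cells in spleen, 5.59% in joint, 33.3% in lung and 58.1% in skin.

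The 4 marker genes of the label were sparse. Bcl11b, a factor that maintains T cell identity, had 73 UMIs in all 1283 cells. Il7r, the receptor for the survival cytokine IL-7, had 72, Lef1 had 45 and Cd3d had 203. At least 1 UMI of these 4 was found in 0% of cells in H4, 14.6% in H6, 8.89% in H7, 23.6% in S2, 12.5% in S3 and 33.1% in S6. Bcl11b stood at 73.9 CPM against 12.3 in all other labelled muscle cells, Cd3d at 205 against 83.8. Markers of other lineages were present in part. Of 9 NK cell genes, 8 were detected, with 188 UMIs in all, most of them from Tyrobp and Fcer1g, which myeloid cells share, while the receptor genes Ncr1 and Klrb1c stood at 1 UMI and 0. The list's summed level ran from 86.8 CPM in S2 to 586 in H4, against 580 in other muscle cells. Of 12 macrophage and monocyte genes, 9 were detected, with 776 UMIs in all, 420 of them from Lyz2 and 258 from Ctss, while C1qa, Csf1r and Mrc1 were at 0. The summed level was 1917 CPM in H4, 806 in H6, 1277 in H7, 305 in S2, 939 in S3 and 1162 in S6, against 4475 in other muscle cells.

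**Figure D1:**
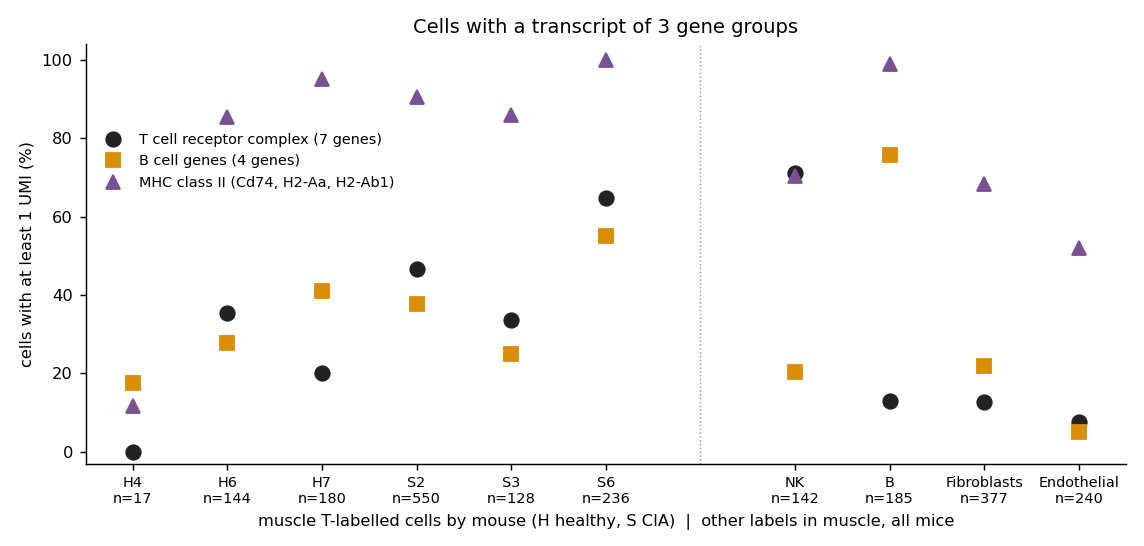
Percent of cells with at least 1 UMI of the T cell receptor complex (circles), of 4 B cell genes (squares) or of 3 MHC class II genes (triangles), for muscle T-labelled cells of each tested mouse (left) and for 4 other labels in muscle over all mice (right), with the number of cells under each. Receptor transcripts ran from 0% in H4 to 64.8% in S6, B cell genes from 17.6% in H4 to 55.1% in S6, and MHC class II was found in 85.4% or more of cells in each mouse but H4.

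Many of the cells held transcripts of B cells. At least 1 UMI of Cd79a, Cd79b, Ms4a1 or Cd22, which encode the signalling chains of the B cell receptor and B cell surface proteins, was present in 495 cells, or 38.6%. The share was 17.6% in H4, 27.8% in H6, 41.1% in H7, 37.8% in S2, 25.0% in S3 and 55.1% in S6. The MHC class II genes Cd74, H2-Aa and H2-Ab1, through which B cells and other antigen-presenting cells show peptides to CD4 T cells, were found in 90.3% of cells. By comparison, at least 1 of the 4 B cell genes was found in 75.7% of B-labelled, 73.4% of myocyte-labelled, 49.6% of neutrophil and 5.0% of endothelial cells. Over all other labelled muscle cells (median 655 UMIs), 53.4% of them from S6, the share was 49.8% for the B cell genes. For MHC class II it was 87.0%. Neither kind of transcript was thus particular to the T label.

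Split by what was detected, 371 cells (28.9%) held receptor transcripts without B cell genes, 321 (25.0%) held B cell genes without receptor transcripts, 174 (13.6%) held both and 417 (32.5%) held neither. This split was made on the values themselves and is a description. The cells with both were the deepest, with a median of 814 UMIs against 618, 562 and 530. MHC class II stood at 6599 CPM in cells with receptor transcripts only and at 16575 in those with B cell genes only. S6 supplied 85 of the 174 cells with both, 36.0% of its T-labelled cells, whereas in the other 5 mice tested the share ran from 0% to 11.1%. In S6 the fibroblasts also held B cell genes (68.2% of 85 cells, at a median of 973 UMIs) and receptor transcripts (30.6%), at 1119 and 305 CPM, against 1181 and 2462 CPM in its T-labelled cells. Only 57 cells of the 1283 held receptor transcripts and neither B cell nor MHC class II genes, 34 of them in S2 and none in S6. The part of doublets or of free RNA in these mixed profiles was not tested.

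**Figure D2:**
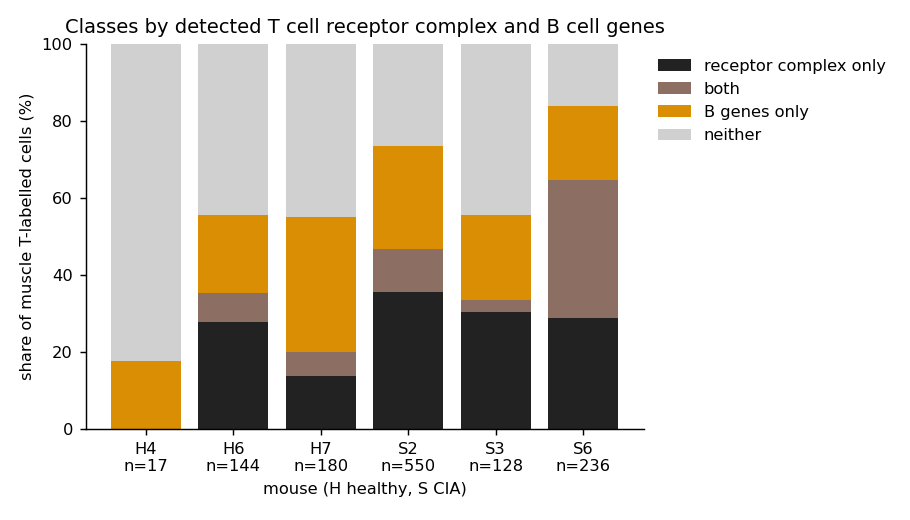
Share of muscle T-labelled cells (percent) in each of 4 classes by detected genes, stacked for each tested mouse. Cells with receptor transcripts only made up 0% in H4, 27.8% in H6, 13.9% in H7, 35.6% in S2, 30.5% in S3 and 28.8% in S6, and cells with both kinds 36.0% in S6.

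Mixed identity was compared between CIA and healthy mice on thinned cells, by the share with a UMI of Cd79a, Cd79b or Ms4a1. It was 5.88% in H4, 18.1% in H6 and 26.1% in H7 (mean 16.7% ± 10.2, SD, n = 3) and 24.4% in S2, 15.6% in S3 and 33.1% in S6 (24.3% ± 8.71). S3 lay below H6 and H7, so the groups overlapped, and the difference of 7.66 points did not exceed the spread between mice (exact permutation p = 0.5). Without thinning the difference was 10.9 points (exact permutation p = 0.5). Pooled over mice, the share in thinned endothelial cells and fibroblasts of muscle was 2.08% and 11.9%. In S6, the highest mouse, it was 38.8% in fibroblasts and 26.2% in macrophages, against 33.1% in T-labelled cells. Fibroblasts lay below the T-labelled cells of the same mouse in H4 (0%), H6 (7.14%), H7 (5.88%) and S2 (12.5%).

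Most receptor transcripts came from the alpha and beta chains. Trac, Trbc1 or Trbc2 was detected in 453 cells (35.3%), with 305 cells holding at least 2 and 194 at least 3 UMIs of the whole complex, up to 26 in 1 cell. The constant genes of the gamma and delta chains (Trdc, Tcrg-C1, Tcrg-C2 and Tcrg-C4) were detected in 51 cells (3.98%), of which 39 also held alpha or beta transcripts. Gamma or delta transcripts were found in 3 cells of H6, 4 of H7, 16 of S2, 8 of S3 and 20 of S6. Trdc lies within the alpha chain locus.

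The coreceptors that mark helper and cytotoxic T cells were too sparse to sort the cells. Cd4 had 28 UMIs, Cd8a 6 and Cd8b1 16 over all cells, and no cell held both kinds. Cd4 alone was seen in 26 cells, 2 in H7, 12 in S2 and 12 in S6. Cd8a or Cd8b1 alone was seen in 20 cells, 3 in H6, 2 in H7, 5 in S2, 3 in S3 and 7 in S6. On thinned cells, the Cd4 share was 0.945 points higher in CIA (0.185% ± 0.321 against 1.13% ± 1.07, SD, n = 3; exact permutation p = 0.4) and the Cd8 share 0.347 points higher (exact permutation p = 0.8). No mouse had 10 cells of each class, so cells with Cd8 and cells with Cd4 transcripts were not compared.

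Among the genes that set the T-labelled cells most apart from other muscle cells were costimulatory and inhibitory receptors of activated T cells. This ranking rests on the same cells that were labelled and carries no test, and 1753 of the 3282 other labelled muscle cells (53.4%) came from S6, where 1492 of them were labelled myocytes. Among genes with at least 60 UMIs, the ratio to all other labelled muscle cells was highest for Tigit, an inhibitory receptor of activated and regulatory T cells, at 60.7 against 5.42 CPM, 11.2-fold. That ratio pools the mice. In S2, with 27 of the 60 UMIs, Tigit stood at 67.0 against 54.2 CPM in other cells. It stood at 63.3 against 0 in S3 and 110 against 6.31 in S6, while H6 and H7 held 1 and 2 UMIs. Icos, a costimulatory receptor induced on activation, stood at 195 against 19.9 CPM, and Ctla4, an inhibitory receptor, at 111 against 14.4. Rora, which encodes a nuclear receptor of type 17 and innate-like lymphocytes, stood at 357 against 52.4 CPM, Gata3, a factor of type 2 lymphocytes that naive T cells also use, at 120 against 19.1, and Cd28 at 61.7 against 8.67. The TNF receptor family members Tnfrsf9 (4-1BB), Tnfrsf4 and Tnfrsf18 (GITR) stood at 76.9 against 12.3, 86.0 against 17.7 and 108 against 23.8 CPM. Il2ra, the high-affinity IL-2 receptor chain, stood at 71.8 against 12.6. Inside each mouse, Tigit, Icos, Ctla4, Cd28, Rora, Tnfrsf9 and Il2ra were each higher in T-labelled than in other cells in 5 of 6 mice, and H4 was at 0 for Icos and Ctla4. Tnfrsf4 and Tnfrsf18 were higher in 4 of 6, and in H7 each stood at 7.02 CPM in T-labelled cells against 18.1 in other cells. S2 and S6 together gave most of these transcripts, with 110 and 55 of the 193 UMIs of Icos and 60 and 23 of the 110 of Ctla4.

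Pooled over mice and without thinning, cells with receptor transcripts only carried these genes more often than cells without receptor transcripts. The classes differed in depth, with medians of 618 UMIs for receptor transcripts only, 562 for B cell genes only and 530 for neither. S2 gave 196 of the 371 cells with receptor transcripts only. Icos was detected in 15.1% of cells with receptor transcripts only, 3.74% of those with B cell genes only and 3.84% of those with neither. For Ctla4 the values were 9.43%, 1.87% and 1.44%, and for Rora 22.6%, 7.79% and 8.63%. Tnfrsf4 stood at 168 CPM in cells with receptor transcripts only and at 8.59 in those with B cell genes only. The receptor signalling genes Lat, Skap1 and Zap70, which the split did not use, followed the same order for the first class, at 266, 101 and 43.7 CPM against 47.2, 25.8 and 4.3 in cells with B cell genes only.

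Neither naive nor activation genes set the cells apart as a group. Ccr7 stood at 276 CPM against 351 in other muscle cells, and Klf2, a factor that drives tissue egress of resting cells, at 232 against 276. Ccr7 was detected in 15.6% of cells with receptor transcripts only and 17.4% of those with B cell genes only. Tcf7 stood at 85.0 against 20.6 CPM, Lef1 at 45.5 against 15.9 and Il7r at 72.9 against 27.8. Inside each mouse, Il7r was higher in T-labelled than in other cells in 5 of 6 mice, but Tcf7 in 3, Lef1 in 2 and Ccr7 in 4. Summed over the 17 naive and resting genes, the level was 1840 CPM against 1819 in other muscle cells, and over the 28 activation and memory genes, many of which other tissue cells also use, it was 6942 against 7616, whereas the 17 receptor and proximal signalling genes stood at 2457 against 688.

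Regulatory, helper and cytotoxic genes were present at low levels. Of the regulatory genes, Ikzf2 (Helios) stood at 55.7 against 4.7 CPM in other muscle cells, while Foxp3, which defines regulatory T cells, had 5 UMIs. Of the helper cytokines, Il5 had 48 UMIs, Il17f 22, Il22 16 and Ifng 35, and Il22 had none in the other muscle cells. Of the cytotoxic genes, Gzmb had 46 UMIs, Prf1 3 and Gzmk 0, while the chemokines Ccl5, Ccl4 and Xcl1 stood at 417, 204 and 250 CPM against 232, 144 and 59.2. Of the 247 UMIs of Xcl1, 160 came from S6 (732 CPM) and none from S3.

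**Figure D3:**
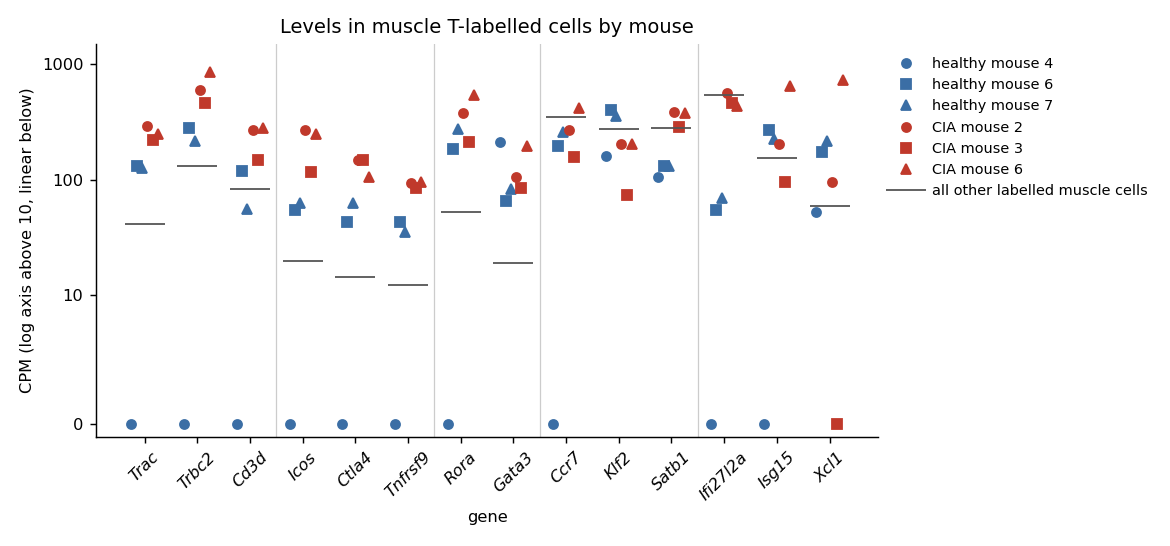
CPM (logarithmic above 10, linear below) of 14 genes in muscle T-labelled cells of 3 healthy mice (blue) and 3 CIA mice (red), with the level in all other labelled muscle cells as a dash. H4 sits at 0 for the receptor genes and Icos, Ctla4 and Ifi27l2a, and Icos lies between 116 and 273 in CIA against 0 to 63.2 in healthy mice.

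Transcripts of other cell types differed widely between mice. The globin genes of red cells stood at 89975 CPM in H4, 31761 in H6 and 45293 in H7, and at 226 in S2, 5792 in S3 and 4306 in S6, higher in each healthy than in each CIA mouse of those tested. Among these mice, H4 alone had muscle without red cell lysis. Granulocyte genes stood at 12937, 7058 and 14841 in the healthy mice and at 216, 2785 and 11220 in the CIA mice, with S6 inside the healthy range. These levels move with the groups beside each result below, and their part in it was not tested.

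CIA and healthy T-labelled cells were compared over 1957 genes with edgeR's quasi-likelihood test (Benjamini-Hochberg adjusted p under 0.05). A gene was tested if it reached a minimum level in at least 3 samples, so it could enter through the mice of 1 group alone. Ifi27l2a, Fyb, Icos, Ctla4 and Ly6a entered through the CIA mice alone. Counts of positive signs within a list are therefore description only. 1 gene passed, 0.0511% of those tested, and it was higher in CIA. A further 119 genes were at an unadjusted p under 0.05 without passing (120 in all, 6.13%). The median log2 fold change of all genes was 0.03. Without S2 3 genes passed, and without S3 or S6 5. In 180 genes all CIA mice lay above all healthy mice (9.2%) and in 82 below (4.19%).

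The gene that passed was Ifi27l2a (chromosome 12, 103442167 to 103443680, minus strand, GRCm38), an interferon-induced gene. Its level was 0 CPM in H4, 54.5 in H6 and 70.2 in H7, against 568 in S2, 464 in S3 and 435 in S6. All CIA mice lay far above all healthy mice, although H4's sum allows up to 160 CPM behind its 0. The log2 fold change was 3.03 (SE 0.47; adjusted p = 0.0181, edgeR). The adjacent gene Ifi27l2b had no UMI in these cells or in the other labelled muscle cells of these mice.

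Ifi27l2a differed between the groups in several kinds of cell. In cells with receptor transcripts it stood at 87.8 CPM in H6, 157 in H7, 720 in S2, 668 in S3 and 418 in S6, and in cells without them at 0 in H4, 34.7 in H6, 45.2 in H7, 368 in S2, 331 in S3 and 479 in S6. In the muscle cells with other labels it stood at 71.5 in H4, 88.1 in H6, 90.4 in H7, 1228 in S2, 843 in S3 and 523 in S6. The order of the groups was thus the same inside and outside the T label. In T-labelled cells of the spleen it was 124 CPM in H3 and 393 in H7, against 1518 in S1, 977 in S2, 729 in S3 and 608 in S5, and in the joint it was 0 in H3 and H4, 593 in S1, 435 in S3, 541 in S5 and 0 in S6. On cells with receptor transcripts alone, 2 against 3 mice, the log2 fold change was 2.32 (adjusted p = 0.447), and with the experiment as a term it was 2.77 (adjusted p = 0.314). Leaving out cells with a B cell marker gave 2.77 (adjusted p = 0.0863), and it missed the threshold in edgeR's test without H6 (0.107), without H7 (0.199) or without S2 (0.1).

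The T cell receptor and its proximal signalling genes were higher in CIA by sign, without passing. Of the 17 genes, 7 had enough counts to be tested and none passed. All 7 were positive in sign, with a median log2 fold change of 1.13 against 0.03 for all genes. H4 held no UMI of the receptor complex, so its genes could be tested only with at least 1 CIA mouse at the filter's level. The sign count therefore carries no support of its own. In edgeR's test 3 were at an unadjusted p under 0.05, against 6.13% of all genes tested. In 5 all CIA mice lay above all healthy mice, against 9.2% of all genes tested. Trbc2 stood at 0 CPM in H4, 283 in H6 and 218 in H7, and at 603 in S2, 464 in S3 and 865 in S6, a log2 fold change of 1.56 (SE 0.48; adjusted p = 0.56). Cd3d stood at 0, 120 and 56.1 against 268, 148 and 279 (1.57, SE 0.53; adjusted p = 0.695). Both genes were lowest in H4, the mouse with no receptor transcript at all, and also lower in H6 and H7 than in each CIA mouse.

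Of 28 activation and memory genes, 17 were tested and none passed, with 14 positive in sign. The median was 0.44, against 0.03 for all genes. Icos and Ctla4 were tested only through their levels in the CIA mice, so the sign count carries no support for a change of the list. In edgeR's test 3 were at an unadjusted p under 0.05, against 6.13% of all genes tested. Icos stood at 0 CPM in H4, 54.5 in H6 and 63.2 in H7, and at 273 in S2, 116 in S3 and 252 in S6 (1.95, SE 0.54; adjusted p = 0.463). In cells with receptor transcripts alone Icos was 117 CPM in H6 and 188 in H7, against 410, 160 and 285 in the CIA mice, so that S3 then lay inside the healthy range. Ctla4 stood at 0, 43.6 and 63.2 against 149, 148 and 105 (1.34, SE 0.54; adjusted p = 0.695). S100a4, Cd44 and Vim, which mark memory cells, had log2 fold changes of 0.73, 0.34 and 0.21.

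Of 17 naive and resting genes, 5 were tested, none passed, and the median was -0.06. Klf2 stood at 160, 403 and 358 CPM in the healthy and 203, 73.9 and 206 in the CIA mice (-1.09, SE 0.43), and Satb1, a chromatin organiser, at 106, 131 and 133 against 384, 285 and 380 (1.37, SE 0.39; adjusted p = 0.463). Ccr7, Foxo1 and Foxp1 lay between -0.12 and 0.49. The genes of this list thus pointed both ways.

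Of 28 interferon response genes, 6 were tested and Ifi27l2a passed, as did 0.0511% of all genes tested. The 6 were positive in sign, with a median of 0.45 against 0.03 for all genes. Ifi27l2a and Ly6a were tested only through their levels in the CIA mice, so the sign count carries no support for a change of the list. Isg15, a ubiquitin-like protein, stood at 0, 272 and 225 CPM against 203, 95.0 and 645, so that S2 and S3 lay below H6 and H7 and S6 above them. Ly6a (Sca-1) stood at 53.2, 43.6 and 21.1 against 94.2, 106 and 247 (2.08, SE 0.63; adjusted p = 0.534).

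**Figure D4:**
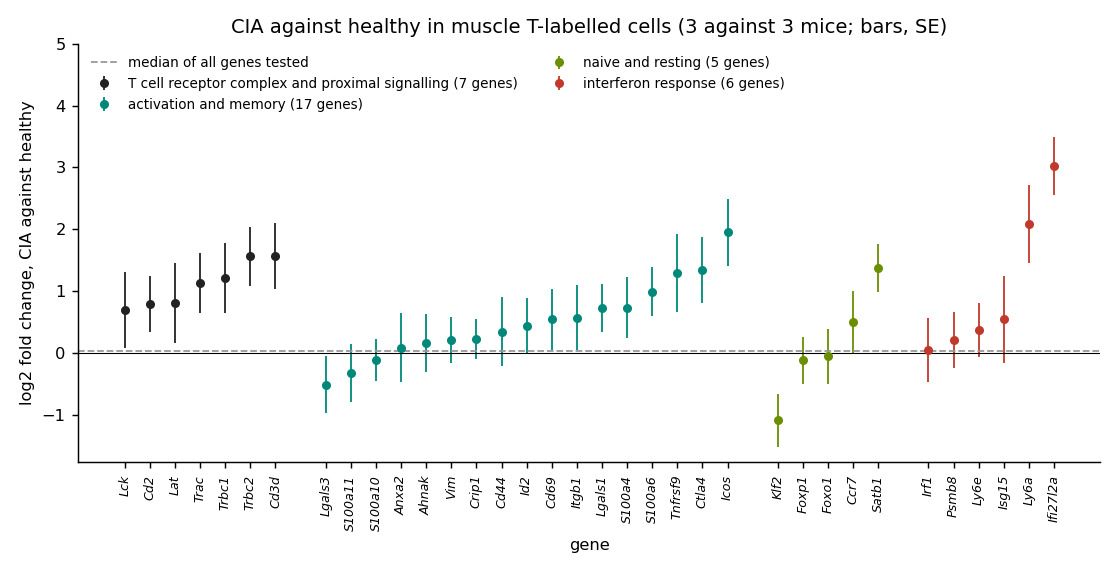
Log2 fold change (CIA against healthy, points) with its SE (bars) for the tested genes of 4 lists in muscle T-labelled cells of 3 healthy and 3 CIA mice, and the median of all genes tested as a dashed line. Ifi27l2a, at 3.03, is the gene past the threshold, and the 7 receptor genes lie between 0.69 and 1.57.

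The remaining lists held no call. Medians were 0.25 for MHC class I presentation (8 of 14 genes tested), 0.10 for MHC class II (6 of 6), -0.05 for B cell markers (9 of 11), -0.08 for immediate early genes (21 of 21), 0.06 for the cell cycle (7 of 12) and 0.38 for TNF, NF-kB and TGF-beta genes (8 of 14). Regulatory genes had a median of 0.98 (2 of 11 tested), homing and egress receptors one of 0.36 (2 of 13), and the single gene tested of the gamma delta and of the helper list lay at 0.88 and 0.40. No coreceptor, thymocyte, smooth muscle or muscle fibre gene could be tested. The 3 tested cytotoxic genes had a median of -0.88 and the 5 granulocyte genes one of -1.54. The 2 macrophage genes tested had a median of -0.34, and the single NK, fibroblast and endothelial genes lay at -0.94, -0.22 and -2.89. The 3 globin genes tested were lower in each CIA mouse than in each healthy mouse, as were 4.19% of all genes tested. Their median was -4.28, and they did not pass (edgeR, adjusted p = 0.695 to 0.754). Mpo, the granule peroxidase of immature granulocytes, stood at 586, 152 and 154 CPM against 0, 10.6 and 36.6 (-4.07, SE 0.92; adjusted p = 0.463).

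Fyb, an adaptor that links the receptor to integrins, had the second-lowest p, at 0, 43.6 and 14.0 CPM against 139, 169 and 229 (2.77, SE 0.62; adjusted p = 0.4). Each CIA mouse lay above each healthy mouse, although H4's 0 allows up to 160 CPM, above S2, and H6 and H7 held 4 and 2 UMIs. With mice of at least 5 cells admitted (4 against 5) Fyb passed (adjusted p = 0.0277, edgeR). Its adjusted p was 0.999 with DESeq2 and also 0.999 in edgeR without H7. In cells with receptor transcripts Fyb stood at 87.8 CPM in H6 and 62.8 in H7, against 196, 187 and 285. The rest of the 10 genes of lowest p were negative: mt-Nd4, a subunit of respiratory complex I (-1.25), the ribosomal protein pseudogene Rps24-ps2 (-1.44), and the predicted genes Gm16580, Gm5100, Gm7990 and Gm2830 (-1.65, -1.53, -1.77 and -1.81), each with an adjusted p of 0.463. Pseudogenes can share reads with their parent genes, so their counts are uncertain.

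T-labelled cells of muscle were then set against those of the spleen, where 6 samples (H3, H7, S1, S2, S3 and S5) had at least 10 of them. With disease as a term, 24 genes were higher in muscle (2.33% of 1028 tested) and 23 lower (2.24%). H7, S2 and S3 gave samples to both organs, and with the mouse as a block 2 genes passed, Plac8 of the 47 and Cd74, which was not among them. Without S2 a single gene passed, without S6 4, without H6 13, without S1 25, without H7 27, without S3 85, without S5 96 and without H4 109.

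The genes higher in muscle included Zc3hav1, an antiviral zinc finger protein. It stood at 213 CPM in H4, 142 in H6, 232 in H7, 374 in S2, 591 in S3 and 577 in S6, against 82.7 in H3, 0 in H7, 86.3 in S1, 95.3 in S2, 50.3 in S3 and 64.0 in S5 in the spleen. The organs did not overlap, and the log2 fold change was 2.56 (SE 0.39; adjusted p = 0.00147; with the mouse as a block, 0.0673). Nfkb1, the p105 and p50 subunit of NF-kB, ran from 148 to 421 CPM in muscle and from 0 to 151 in spleen, overlapping in S3 alone (2.20, SE 0.48; adjusted p = 0.0193). H2-K1, an MHC class I heavy chain, ran from 905 to 4379 in muscle and from 786 to 1121 in spleen, with H4 inside the spleen range (1.45, SE 0.29; adjusted p = 0.0112). Fth1, the ferritin heavy chain that stores iron, ran from 1688 to 7010 against 951 to 1835, with S3 inside the spleen range (1.72, SE 0.29; adjusted p = 0.00449; with the mouse as a block, 0.279), and was the gene that passed without S2. Sdc4, Jak1, Eif5 and Hn1 also passed, at 2.38, 1.47, 1.38 and 1.53.

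The genes lower in muscle included those of dividing cells. Top2a, the topoisomerase of replicating cells, stood at 426 CPM in H4 and 21.8 to 189 in the other muscle samples, against 288 to 917 in spleen (-1.84, SE 0.44; adjusted p = 0.0262). Pclaf, a factor bound to the replication clamp, ran from 54.5 to 426 against 160 to 983 (-1.89, SE 0.44), and Dut, which keeps uracil out of DNA, also passed (-1.43). Of the 7 cell cycle genes tested, 2 passed as lower (2.24% of all genes tested did), none was positive, and the median was -0.46 against 0.02 for all genes. With the mouse as a block neither passed (edgeR, adjusted p = 0.0673 for Top2a and 0.125 for Pclaf). H2afy, a histone variant, and Plac8, a protein of myeloid and lymphoid cells, had the largest falls, at -2.01 and -2.0. For each of these 5 genes, H4 was the highest muscle sample.

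Lineage genes were not called between the organs. Trbc2 stood at 0 to 865 CPM in muscle and 17.3 to 524 in spleen (1.65; adjusted p = 0.0952), and the 3 receptor genes tested had a median of 1.24. Ccr7 was at 1.54 (adjusted p = 0.086), and the 4 MHC class II genes tested had a median of 1.50 with none past the threshold. Ifi27l2a was at -1.11 (adjusted p = 0.0624). Receptor transcripts were less frequent in the spleen cells (24.3%) than in the muscle cells (42.5%), and restricted to cells with such transcripts the fit, on 5 muscle and 2 spleen samples, gave no call among 692 genes (52 at an unadjusted p under 0.05).

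**Figure D5:**
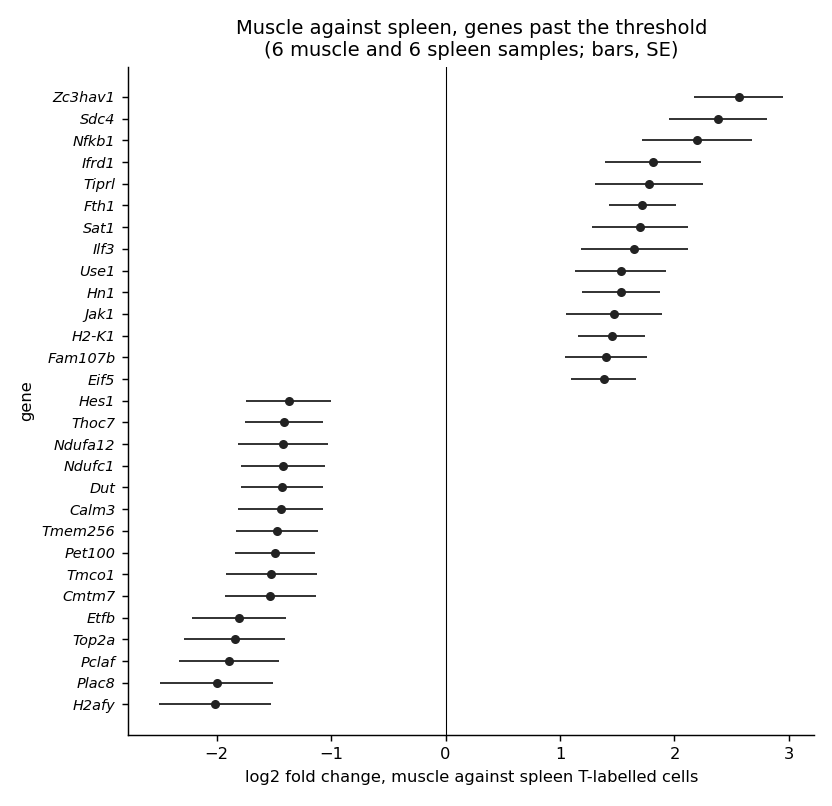
Log2 fold change (points) and SE (bars) of 14 genes higher and 15 lower in muscle, of largest difference among those past the threshold, muscle against spleen T-labelled cells, 6 samples each. Zc3hav1 is highest at 2.56 and H2afy lowest at -2.01.

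Against the joint, the inflamed organ, 3 genes of 911 passed (0.329%), again over 6 samples from each organ. Cd52, a surface glycoprotein of lymphocytes, stood at 319 CPM in H4, 828 in H6, 870 in H7, 821 in S2, 675 in S3 and 1300 in S6, against 214 in H3, 96.7 in H4, 268 in S1, 261 in S3, 311 in S5 and 297 in S6 in the joint. The organs did not overlap (1.85, SE 0.36; adjusted p = 0.0342). Stk17b, a kinase that restrains T cell activation, ran from 213 to 549 in muscle and 0 to 193 in joint (2.02, SE 0.43; adjusted p = 0.0443). Cd63, a lysosomal membrane protein of myeloid and other cells, ran from 31.7 to 373 in muscle and was 712, 774, 574, 1132, 203 and 0 in the joint samples (-2.65, SE 0.57; adjusted p = 0.0443).

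Of the genes that did not pass, Ptprc (CD45) was at 1.91 and Vim at -1.66 (adjusted p = 0.0992 and 0.0624), and the 3 MHC class II genes tested had a median of 2.97. H2-Aa ran from 0 to 4475 CPM in muscle and 0 to 1286 in joint, with H4 at 0 in both. H4, S3 and S6 gave samples to both organs, and with the mouse as a block 3 genes passed, H2-Aa, H2-Ab1 and Igkc, none of them among the 3 above. No gene passed without H6, H7, S2 or S3, 10 passed without H3 and 23 without H4. Only 5.59% of joint T-labelled cells held receptor transcripts, and no receptor or coreceptor gene had enough counts in this comparison to be tested.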

How the data were processed

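Single-cell libraries were made with Seq-Well from dissociated organs. The authors aligned reads with STAR (per the study's methods to GRCm38; the submitters' processing notes list other builds), counted UMIs per gene and cell with Drop-seq tools, and kept cells with at least 400 UMIs; the stated upper limit of 6000 was meant to remove doublets, and cells up to 9983 UMIs are in the deposited table. The deposited counts are raw UMI counts of 34586 genes in 13240 cells, and the deposited annotation gives a cell type per cell, made by the authors from reference-based labels and clusters of denoised data; both were used as they stand. No doublet caller was run and no cell removed. The members, gene lists and comparisons were chosen with earlier results of these data known.

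UMIs were summed per mouse and organ and tested with edgeR 4.0.16 (R 4.3.3; TMM, filterByExpr, robust quasi-likelihood, threshold 0.05); DESeq2 1.42.0 was an alternative. Samples under 10 T-labelled cells were left out. CPM is a gene's UMIs over all UMIs of the cells, scaled to 1000000. Single values used two-sided exact permutation tests over mice (SciPy 1.17.1); shares were thinned to 400 UMIs per cell (seed 1). The 26 gene lists were described, not tested. Some genes are not reported here and were left out of the lists and gene groups. Named were list genes with most UMIs, up to 15 genes per direction past the threshold, and, where fewer than 10 passed, the 10 of lowest p. Tigit, Skap1 and Cd28 among the genes most above other muscle cells were named after their values were seen. Muscle and spleen samples were paired by mouse for H7, S2 and S3, and muscle and joint samples for H4, S3 and S6, as the labels give the animal; the block used those pairs. The fitting script was tested on simulated data. For CIA against healthy it recovered 1% of genes with a log2 change of 1, 82% at a change of 2 and 97% at 3. Genes that did not pass at small changes are thus not shown to be unchanged. Cells with receptor transcripts as a restriction were chosen after seeing the data.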

Additional observations from a re-analysis of the deposited data

How the results depend on the processing

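In each comparison the counts of genes past the threshold moved with the settings. CIA against healthy gave 1 gene with RLE factors, plain library size, red cell lysis as a term or at least 20 cells, 13 (5 higher) with every gene of at least 1 UMI, 2 with DESeq2 or at least 5 cells, and 0 without cells with B cell markers (65 at an unadjusted p under 0.05), with at most 50 cells per sample (26), with the experiment as a term (180) or with receptor-positive cells alone (38, chosen after seeing the data). The first experiment alone (3 against 1 mouse, S6 assumed to vary like the others) gave 18. Leaving out a mouse gave 0 to 5: 0 without H6 or H7, 3 without S2 (globin genes), 5 without S3 or S6. Plain library size moved the median log2 fold change of all genes from 0.03 to 0.16, every gene to 0.37 and DESeq2 to -0.29. Ifi27l2a stayed between 2.32 and 3.45. Muscle against spleen gave 269 genes with every gene, 179 with DESeq2, 124 with at least 20 cells, 31 with at least 5, 11 with at most 50 cells per sample, 0 with receptor-positive cells and 1 to 109 without 1 mouse; the 24 to 23 split was 21 to 26 with RLE factors and 20 to 29 with plain library size. Muscle against joint gave 161, 89, 50, 1 and 0 under the first 5 of these and 0 to 23 without 1 mouse (0 without H6, H7, S2 or S3), 16 in CIA mice alone; its 2 to 1 split was 2 to 2 with RLE factors and 1 to 2 with plain library size. The replicate block by mouse gave 2 genes for spleen and 3 for joint (32 at an unadjusted p under 0.05). No paired analysis was possible for CIA against healthy because the groups share only the number 6. Cd8 and Cd4 cells could not be compared, so no alternative of that comparison was run; the joint fit on receptor-positive cells could not be made.

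The difference in T cell share was -23.7 points in the first experiment, and -6.85 to 8.68 without 1 mouse, negative without H3 (-0.863), H4 (-1.78), S2 (-6.85) or S3 (-5.51). The Cd8 share ran from -0.0984 (without S6) and -0.0924 (without H4) to 0.961, the Cd4 share from 0.451 to 1.51, the B cell marker share from 2.26 to 12.4 and the median UMIs from -39.0 to 54.1 (54.1 without H4, 17.0 without S2, 21.5 without S3). Of the 49 named genes' values under alternatives, 573 kept their side of the threshold, 235 fell below it, 27 rose above it and none changed sign. The cause was not tested. Depth limits H4 most, where a count of 0 allows up to 160 CPM.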

Other observations

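In S3, 4 T-labelled cells held 97.6% of that mouse's 4529 UMIs of the lambda-1 light chain genes Iglc1, Iglv1 and Iglj1, with a median of 1270 and at most 1850 each. They also held 120 UMIs of Jchain, the joining chain of secreted antibodies, and 1 of the 4 held a receptor transcript. Lambda-1 transcripts stood at 47784 CPM in S3, whereas the other 5 mice tested had 0 to 37 UMIs. Dqx1 and Ighg2b, among the genes most above other muscle cells, came by 82.1% and 88.6% from S3.

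Il5, the eosinophil growth factor of type 2 lymphocytes, was almost limited to S6, with 42 of its 48 UMIs in 11 cells of that mouse. Of these cells 4 held a receptor transcript, 8 Gata3 and 8 Rora. Another 22 muscle cells of S6 with other labels held 26 UMIs of Il5. Ifit1 and Cxcr6 were also highest in S6, at 188 CPM each, with the other mice tested at 0 to 43.6 and 0 to 54.5.

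The T-labelled cells of H4 stood apart from those of the other 5 mice tested, with 0 UMIs of the receptor complex, MHC class II at 160 CPM and 426 CPM of Top2a. H4 was also the only mouse tested whose muscle red cells were not lysed, and the part of this was not tested. In the same mouse receptor transcripts were present in 12.8% of granulocytes.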
